A study of Mus musculus with 4 samples.

Results

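Ttn, Lin28b and the long non-coding RNA genes AC171111.1 and Gm20110 are 4 of the 55422 gene IDs in the count matrices of hippocampal nuclei from mice with and without a conditional deletion of Kat6a, which encodes a histone acetyltransferase. The 4 genes were selected on the measured difference of their counts between genotypes in nuclei of CA3, the hippocampal field between CA2 and the dentate hilus. Their difference in CA3 is therefore given as a description, without a test, and tests are limited to other classes of nuclei and to levels across classes in Control. Control CA3 counts are part of that difference, so tests of CA3 over another class in Control are not free of the choice of genes. Adult mice of both genotypes carried Kat6a alleles flanked by loxP sites (Kat6a-f/f), so a floxed Kat6a is common to all groups. The 2 Control libraries had no Cre, and the 2 Kat6a-cKO libraries came from NEX-cre, Kat6a-f/f mice, in which Cre is expressed from the Neurod6 locus and is directed to excitatory neurons of the forebrain. Inhibitory neurons and glia are outside the main reach of that driver. Each library is a 10x Genomics Chromium single-nucleus preparation of hippocampal tissue. The labels do not say whether libraries of a genotype came from separate animals, so no p-value is known to measure the spread between animals. Genotype p-values rest on the spread between these 2 libraries per group, moderated by that of all genes. Those of levels across classes rest on how the class difference varies between the 2 Control libraries, moderated likewise.

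Ttn encodes titin, the giant elastic protein that spans the sarcomere of striated muscle from the Z-disc to the M-band. It is not a classical neuronal gene. LIN28B is an RNA-binding protein best known in embryonic and progenitor cells, where it blocks the maturation of the let-7 family of microRNAs. Let-7 in turn represses growth-promoting genes and Lin28b itself. AC171111.1 and Gm20110 are annotated as long intergenic non-coding RNAs, and no function is stated for them here.

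In GENCODE M21 (GRCm38, the build named mm10 in the submitters' notes), Ttn lies at chr2:76703980-76982547 on the minus strand and is annotated with up to 347 exons in a transcript. The antisense gene Gm13938 overlaps it on the plus strand, and since the strand used in counting is not given in the sources used here, reads of this pair cannot be told apart. Lin28b lies at chr10:45376620-45486395 on the minus strand, with up to 5 exons and no overlapping gene. AC171111.1 is a 3-exon gene at chr17:14249851-14277755 on the plus strand and ends 1.75 kb before Smoc2. Gm20110 is a 3-exon gene at chr10:99609171-99658134 on the plus strand and overlaps Gm18409 on the minus strand, and reads of this pair cannot be told apart for the same reason.

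The non-coding members have no protein by which to recognise them, so the ends of their single annotated transcripts are shown, from GENCODE M21. The AC171111.1 transcript is 2965 bases long, and capitals mark AATAAA, the canonical polyadenylation signal, which occurs 1 time in its last 150 bases. The Gm20110 transcript is 2095 bases long and has 0 copies of that hexamer in its last 150 bases.
AC171111.1, first 150 bases: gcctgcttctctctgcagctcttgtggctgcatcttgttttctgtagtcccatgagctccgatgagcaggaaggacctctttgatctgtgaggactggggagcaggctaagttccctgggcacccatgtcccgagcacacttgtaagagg
AC171111.1, last 150 bases: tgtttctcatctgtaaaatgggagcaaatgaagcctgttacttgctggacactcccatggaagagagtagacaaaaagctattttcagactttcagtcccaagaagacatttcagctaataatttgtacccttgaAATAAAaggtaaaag
Gm20110, first 150 bases: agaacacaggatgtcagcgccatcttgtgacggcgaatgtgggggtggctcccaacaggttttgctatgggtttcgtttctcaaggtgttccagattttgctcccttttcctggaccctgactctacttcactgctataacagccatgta
Gm20110, last 150 bases: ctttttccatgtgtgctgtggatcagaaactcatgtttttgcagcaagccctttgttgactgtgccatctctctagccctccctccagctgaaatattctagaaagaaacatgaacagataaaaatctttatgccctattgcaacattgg

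The RefSeq promoter table (GRCm38.p6) held 3 of the 4 members, and the 250 bases before the start of each are shown because these genes were picked for moving with the loss of a chromatin regulator. Capitals mark CANNTG, the E-box of basic helix-loop-helix factors, found on either strand. Of 32851 promoters of the same length, 66.2% held a CANNTG, 33.8% a CCAAT and 12.4% a TATAAA. The Ttn window (chr2:76982548-76982797, minus strand) held 1 CANNTG and 2 CCAAT. The Lin28b window (chr10:45470202-45470451, minus strand, before a RefSeq start that is inside the GENCODE gene) held 2 CANNTG and 1 CCAAT. The Gm20110 window (chr10:99608921-99609170, plus strand) held 1 CANNTG and 1 CCAAT. None of these windows held a TATAAA. A match is a string of letters and not a shown binding site.
Ttn promoter: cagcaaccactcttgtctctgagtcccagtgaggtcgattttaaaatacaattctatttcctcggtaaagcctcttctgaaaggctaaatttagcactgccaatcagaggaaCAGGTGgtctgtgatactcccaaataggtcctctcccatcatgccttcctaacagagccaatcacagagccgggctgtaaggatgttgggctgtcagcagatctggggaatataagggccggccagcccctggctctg
Lin28b promoter: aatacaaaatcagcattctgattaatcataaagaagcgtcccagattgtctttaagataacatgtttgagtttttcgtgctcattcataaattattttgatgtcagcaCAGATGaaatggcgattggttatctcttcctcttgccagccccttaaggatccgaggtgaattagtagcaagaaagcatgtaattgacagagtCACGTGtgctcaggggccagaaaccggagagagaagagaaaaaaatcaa
Gm20110 promoter: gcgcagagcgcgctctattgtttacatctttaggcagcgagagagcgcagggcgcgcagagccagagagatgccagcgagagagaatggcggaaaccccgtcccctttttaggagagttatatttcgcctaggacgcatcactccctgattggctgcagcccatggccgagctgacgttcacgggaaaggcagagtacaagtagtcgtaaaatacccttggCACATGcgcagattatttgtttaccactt

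The let-7 family is the best known substrate of LIN28B, and its 9 mature 5p members in RefSeq share 1 seed, bases 2 to 8, in capitals. Mature microRNAs are not measured by these libraries. Of the 9, the sequences of let-7a, let-7g and miR-98 are shown.
let-7a-5p: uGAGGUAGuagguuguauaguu
let-7g-5p: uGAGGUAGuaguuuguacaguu
miR-98-5p: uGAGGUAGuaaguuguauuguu

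Between 7911 and 8442 barcodes per library had at least 5000 UMIs (unique molecular identifiers, each 1 counted RNA molecule), and 31465 nuclei were kept after doublet removal, of which 2237 were classed as CA3, 463 as CA2 and 182 as mossy cells of the hilus. Median UMI counts of kept nuclei ran from 13706 to 14381, and total counts from 171323466 to 186897245 per library. Any pair of libraries shared 15 to 20 nucleus barcodes. In CA3, 9 of 9 CA3 markers were detected in every library. They summed to 6093 and 6219 CPM, the counts of a gene scaled to a common total, in Control against 5828 and 5735 CPM in Kat6a-cKO. Dentate granule markers there summed to 1977 and 1881 CPM against 2046 and 2024 CPM. The part of these levels in the members' differences was not tested. The CA3 markers served to name the class, and in mossy cells they summed higher, to 7486 and 7606 CPM against 6791 and 6977 CPM. Their sum therefore does not set CA3 apart from mossy cells. The Cre entry had 0 counts in CA3 of both Control libraries and stood at 2.24 and 2.95 CPM in Kat6a-cKO replicates 1 and 2. Kat6a itself was at 64.8 and 65.1 CPM in Control against 60.0 and 65.1 CPM in Kat6a-cKO CA3, and counts over the whole gene do not isolate the floxed part. Calcrl, Htr2c and Col6a1 were listed as ventral CA3 markers, and the cluster with their highest mean level (540 nuclei) was picked out by that rule. It raised only 4 of 9 CA3 markers, so it was kept apart under the names of those genes.

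In CA3, Ttn, AC171111.1 and Gm20110 were lower and Lin28b was higher in both Kat6a-cKO libraries than in both Control libraries. Levels here are CPM after TMM scaling within the class. Fold changes are log2 of Kat6a-cKO over Control from edgeR, with a standard error (SE). All 4 members passed the filter on low counts in CA3. Groups failed to overlap in the higher direction for 18.3% and in the lower direction for 19.7% of the 14618 genes tested in CA3, and 0.0205% of genes (3, all higher) passed an adjusted p of 0.05 by the edgeR quasi-likelihood test. No member was among those 3, which were Gm3279, Unc5d and the Cre entry. The rule used this contrast, so nothing is read from these counts.

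Ttn was at 16.4 and 20.5 CPM in Control CA3 against at 8.67 and 5.77 CPM in Kat6a-cKO, from 216, 298, 120 and 94 counts. The lowest Control library was above the highest Kat6a-cKO library, and the fold change was -1.37 ± 0.19 (SE). The 7 striated muscle markers other than titin summed to only 1.04 to 1.34 CPM in CA3, with 1 to 3 of them at 0 in each library. Mossy cells, where Ttn was highest, had summed marker levels in CA3 of 125 and 121 CPM in Control against 113 and 111 CPM in Kat6a-cKO. Most of that sum was Ociad2 and Ajap1, at 48.7 and 50.7 CPM in pooled CA3 nuclei against 21.1 and 204 CPM in mossy cells. Csf2rb2, Drd2 and Calb2 were at 1.55, 0.121 and 0.50 CPM in CA3 against 178, 49.0 and 23.3 CPM in mossy cells. Calcr, like Ociad2, was higher in CA3, at 13.0 CPM against 2.54 CPM in mossy cells. Glp1r, Nmb and Sv2c were at 0.052, 1.10 and 1.74 CPM in CA3 against 0.586, 8.99 and 2.15 CPM. The sum is therefore a poor measure of mossy cells in CA3, and their part in the Ttn difference was not tested. AC171111.1 was at 27.9 and 22.9 CPM in Control against at 9.47 and 12.3 CPM in Kat6a-cKO, from 368, 333, 131 and 201 counts. Here too the groups were apart, with a fold change of -1.21 ± 0.16 (SE). In sums over nuclei, fewer cells with a transcript and less RNA per cell cannot be told apart.

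Lin28b ran the other way, at 9.86 and 8.37 CPM in Control against 14.8 and 17.8 CPM in Kat6a-cKO CA3, from 130, 122, 205 and 290 counts. Both Kat6a-cKO libraries were above both Control libraries, with a fold change of 0.84 ± 0.15 (SE). Gm20110 was at 4.93 and 3.64 CPM in Control against 1.23 and 1.29 CPM in Kat6a-cKO, from 65, 53, 17 and 21 counts. It had the lowest counts of the 4 members and a fold change of -1.75 ± 0.29 (SE). With the Calcrl, Htr2c and Col6a1 cluster counted as CA3, a choice made after the data were seen, the Lin28b difference was 0.32 and that of AC171111.1 was -0.73, while Ttn stayed at -1.32 and Gm20110 at -1.79.

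The share of CA3 nuclei with a UMI followed the same order after each nucleus was thinned to 5000 UMIs. A Ttn UMI was found in 6.18% and 7.56% of Control nuclei and in 4.89% and 2.76% of Kat6a-cKO nuclei. The share without thinning was 19.8% and 21.0% against 11.5% and 9.04%, at median depths of 23354 to 28426 UMIs. In oligodendrocytes, which should lack titin, the thinned share was 0% to 1.79% at median depths of 5976 to 6408 UMIs. The thinned Lin28b share in CA3 was 4.05% and 3.69% in Control against 6.46% and 7.35% in Kat6a-cKO (16.6%, 16.2%, 20.2% and 25.4% unthinned), against 0% to 1.80% in oligodendrocytes.

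For AC171111.1 the thinned CA3 share was 9.38% and 7.20% in Control against 2.97% and 4.90% in Kat6a-cKO (27.3%, 22.7%, 12.6% and 15.2% unthinned). In oligodendrocytes it was 0% in all 4 libraries, and in CA1 it was 0.126% to 0.249%. Exact 95% intervals of the 2 Control libraries for this gene ran from 5.17% to 12.4% and those of the 2 Kat6a-cKO libraries from 1.74% to 6.85%, so neighbouring intervals overlapped; they cover counting error only. Gm20110 was found in 2.35% and 2.58% of Control and 0.349% and 0.766% of Kat6a-cKO CA3 nuclei (11.3%, 7.20%, 1.92% and 2.45% unthinned). No class is known here to lack Gm20110, and its thinned share in oligodendrocytes was 4.79% and 2.08% in Control against 0% and 5.36% in Kat6a-cKO.

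**Figure D1:**
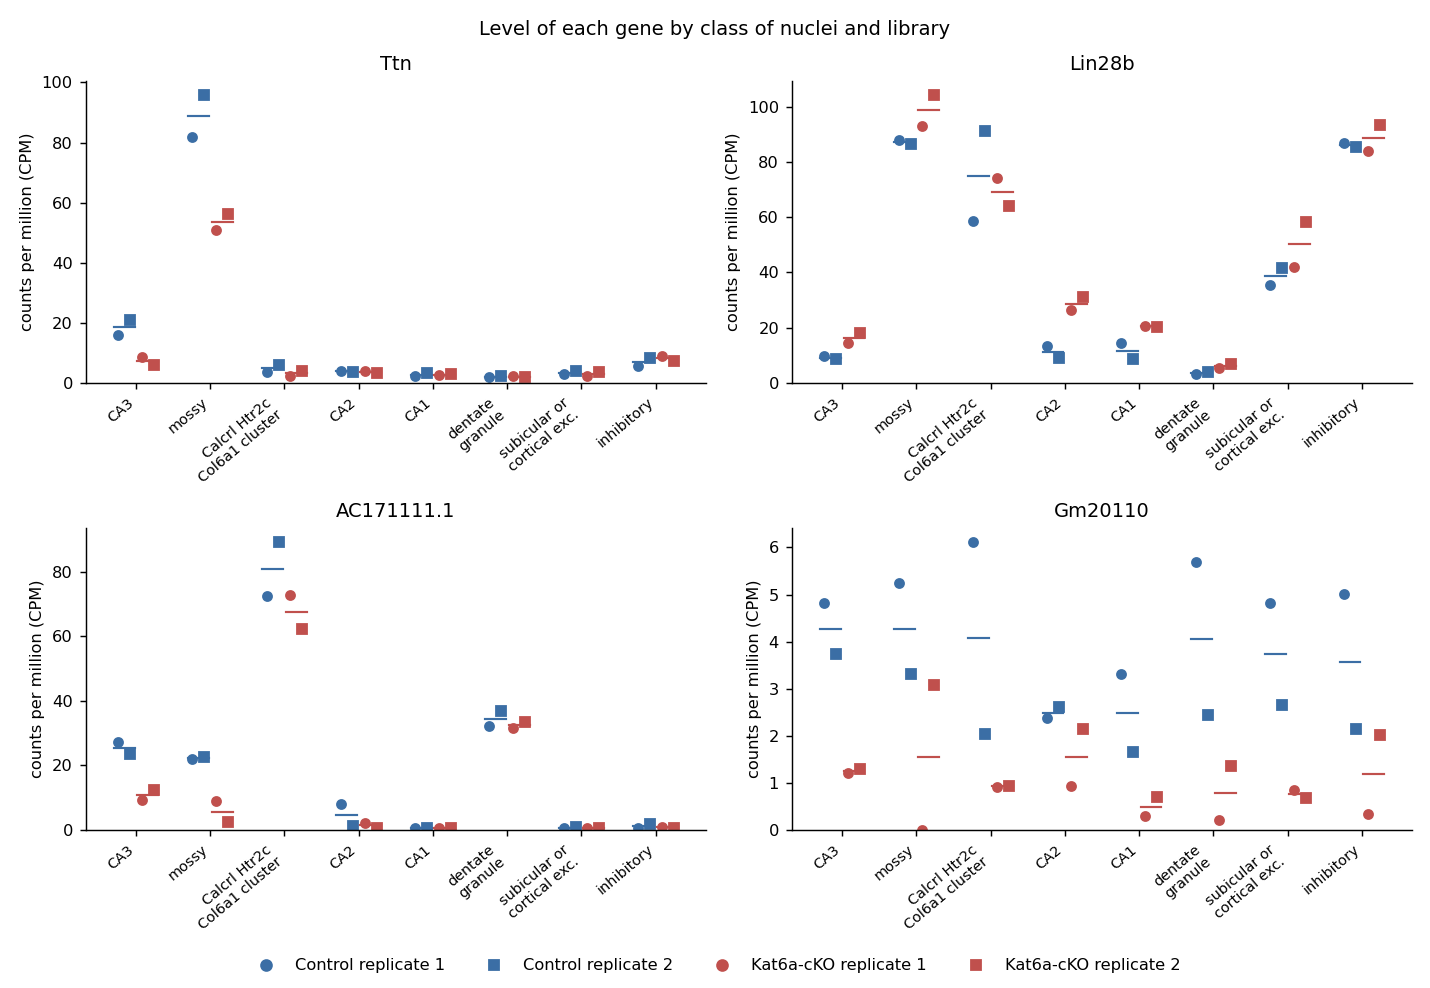
Level of each gene (CPM without TMM scaling, linear axis from 0, a different range in each panel) in 8 classes of nuclei. Each point is 1 library, circles for replicate 1 and squares for replicate 2, and short lines are group means of 2 libraries. By group means, Ttn stands highest in mossy cells, AC171111.1 in the Calcrl Htr2c Col6a1 cluster, and Lin28b in mossy and inhibitory nuclei. In Control, the Lin28b points of the Calcrl Htr2c Col6a1 cluster overlap those of both.

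CA3 was not uniform for these genes. At a finer clustering of all nuclei made without the members, the CA3 nuclei fell mainly into 3 clusters, of which only the CA3 nuclei are counted here. Cluster 9 (1060 nuclei, led by Sema5b, Cntn4 and Rgs6) held most of the Ttn counts, 198 of 216 and 271 of 298 in Control. Its Ttn level without TMM scaling was 35.1 and 41.8 CPM in Control against 16.5 and 10.5 CPM in Kat6a-cKO. Cluster 11 (846 nuclei, led by Chst9, Cadps2 and Efemp1) had 2.48 and 3.75 CPM of Ttn in Control against 2.35 and 2.55 CPM in Kat6a-cKO, so the low level there overlapped between genotypes. In cluster 35 Ttn was at 1.67 and 2.89 CPM in Control and at 3.10 and 2.77 CPM in Kat6a-cKO, again overlapping. In the CA3 nuclei with a UMI of a ventral marker, which numbered 61 and 69 for Control against 79 and 76 for Kat6a-cKO, Ttn was at 6.41 and 7.74 CPM against 5.81 and 9.11 CPM, and the groups overlapped there as well.

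AC171111.1 had the opposite distribution. It was highest in cluster 35 (326 nuclei, led by Gm31763, Plagl1 and Tmem163), at 56.1 and 60.2 CPM in Control against 16.9 and 21.3 CPM in Kat6a-cKO. Cluster 11 followed with 34.6 and 23.1 CPM against 12.2 and 14.0 CPM, and cluster 9 with 10.3 and 12.2 CPM against 3.17 and 7.31 CPM. The nuclei of these clusters are those that chose the gene, so nothing is read from the genotype values in them. Lin28b was spread over all 3, and in cluster 9 its groups overlapped, at 11.5 and 7.71 CPM in Control against 10.0 and 20.3 CPM in Kat6a-cKO. In cluster 11 it was at 8.77 and 7.68 CPM against 19.0 and 16.4 CPM, and in cluster 35 at 6.67 and 13.96 CPM against 16.5 and 16.2 CPM, with the libraries apart by genotype in both. Gm20110 was at 5.67 and 4.93 CPM against 2.67 and 1.07 CPM in cluster 9 and at 3.97 and 3.04 CPM against 0.196 and 1.13 CPM in cluster 11. In cluster 35 its groups overlapped, at 5.001 and 1.93 CPM against 0 and 2.37 CPM, from 9, 4, 0 and 6 counts.

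The share of CA3 nuclei in cluster 9 was 48.8% and 50.0% in Control against 46.2% and 45.2% in Kat6a-cKO, and in cluster 35 it was 11.5% and 12.7% against 19.0% and 14.4%. Levels were also recomputed at the Control shares of the 3 clusters, as a description only, since the genes were chosen by this contrast. Ttn was then at 18.5 and 22.5 CPM in Control against 9.45 and 6.51 CPM in Kat6a-cKO. AC171111.1 was at 25.2 and 22.2 CPM against 8.28 and 11.6 CPM, Lin28b at 9.87 and 8.46 CPM against 14.3 and 18.3 CPM, and Gm20110 at 4.94 and 3.84 CPM against 1.40 and 1.25 CPM. These clusters come from the same nuclei, so no test was made between them.

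**Figure D2:**
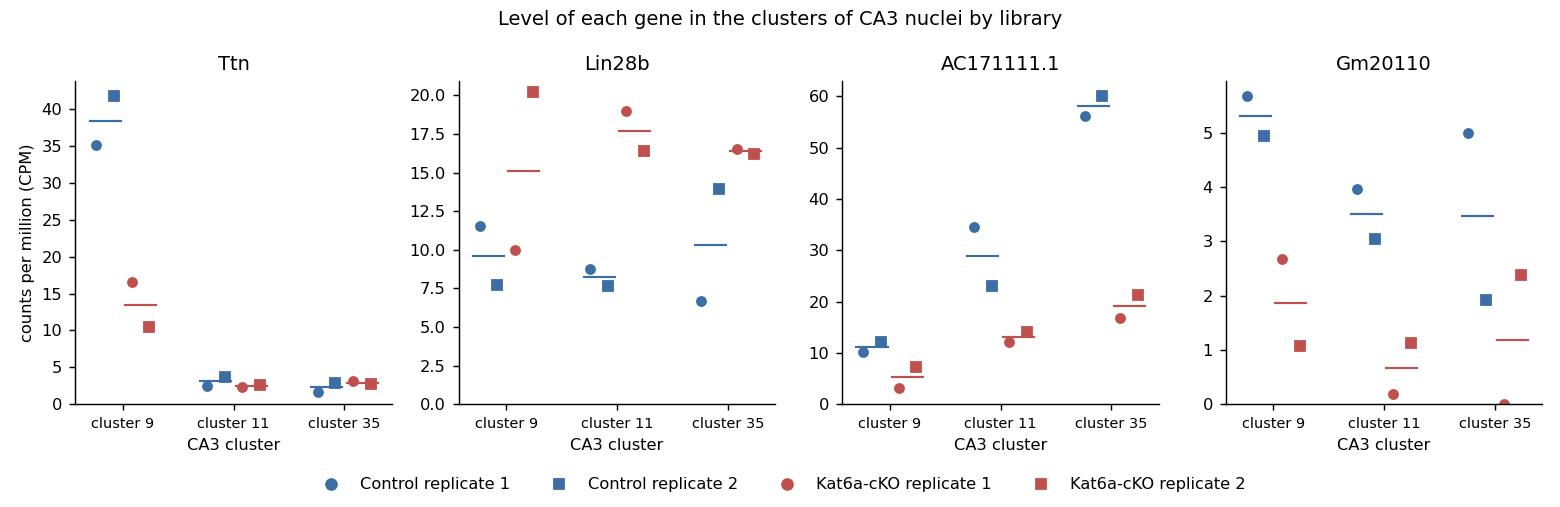
Level of each gene (CPM without TMM scaling, axis from 0) in the 3 main clusters of CA3 nuclei. Points are libraries (circles replicate 1, squares replicate 2) and lines are group means. Ttn is highest in cluster 9, whereas AC171111.1 is highest in cluster 35.

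Across classes in Control, Ttn was highest in mossy cells, at 81.7 and 95.8 CPM without TMM scaling. CA3 came next, at 16.0 and 21.0 CPM, then inhibitory nuclei at 5.59 and 8.18 CPM. The Calcrl, Htr2c and Col6a1 cluster, at 3.49 and 6.10 CPM, overlapped with CA2 at 3.64 and 3.97 CPM. CA1 was at 2.24 and 3.32 CPM and dentate granule nuclei at 1.85 and 2.37 CPM. These low levels lie near the 2.70 and 4.75 CPM of Ttn in Control barcodes under 100 UMIs, which hold free RNA. In edgeR fits of the Control libraries with the library as a block, Ttn in CA3 was higher than in CA1 by 2.75 ± 0.12 (log2, SE), than in CA2 by 2.19 ± 0.25, than in dentate granule by 3.23 ± 0.14 and than in inhibitory nuclei by 1.60 ± 0.14. It was lower in CA3 than in mossy cells, at -2.20 ± 0.16. The largest of these 5 adjusted p-values was 5.15e-06, from edgeR. The Control CA3 counts are part of the contrast that chose Ttn, so these tests are not free of that choice. With 2 libraries these fits have little spread of their own and lean on the spread of all genes, and 20.9% (mossy) to 58.8% (dentate granule) of all genes passed in the same fits, with 42.8% against CA1, 25.2% against CA2 and 52.2% against inhibitory nuclei.

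In Control, mean Lin28b was highest in mossy cells (88.0 and 86.5 CPM) and inhibitory nuclei (87.0 and 85.2 CPM), whose ranges overlapped. The Calcrl, Htr2c and Col6a1 cluster, at 58.5 and 91.0 CPM, had a lower mean but overlapped both. Subicular or cortical excitatory nuclei followed at 35.4 and 41.7 CPM. CA1 (14.4 and 8.82 CPM), CA2 (13.5 and 8.85 CPM) and CA3 (9.64 and 8.59 CPM) overlapped, and dentate granule nuclei were at 3.33 and 3.92 CPM. In CA3, Lin28b was lower than in mossy cells by -3.20 ± 0.19 (log2, SE) and than in inhibitory nuclei by -3.07 ± 0.10, and higher than in dentate granule by 1.43 ± 0.16. Each of these passed, the largest adjusted p by edgeR being 2.20e-16. As the Control CA3 counts are part of the contrast that chose Lin28b, its level tests are not free of that choice. Against CA1 the difference was -0.31 ± 0.14 (adjusted p = 0.106 by edgeR) and against CA2 it was -0.38 ± 0.23 (adjusted p = 0.268). At clustering resolution 2 these levels were -2.54 against mossy, -2.43 against inhibitory, 2.16 against dentate granule, 0.31 against CA1 and 0.25 against CA2, so the last 2 turned in sign, and with free RNA subtracted the level against dentate granule was 2.38. Free RNA held 13.6 and 18.6 CPM of Lin28b in Control against 18.1 and 18.0 CPM in Kat6a-cKO, above the Control CA3 level. With the expected free RNA (4.23% to 6.27% of CA3 counts) subtracted, the genotype difference in CA3 was 0.90.

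AC171111.1 was highest in Control in the Calcrl, Htr2c and Col6a1 cluster, at 72.4 and 89.2 CPM. Dentate granule nuclei were at 32.1 and 36.8 CPM, CA3 at 27.3 and 23.4 CPM and mossy cells at 22.0 and 22.5 CPM. CA2 was uneven, at 7.94 and 1.04 CPM, and CA1 was at 0.519 and 0.604 CPM. CA3 was higher than CA1 by 5.49 ± 0.15 (log2, SE), than CA2 by 2.59 ± 0.33 and than inhibitory nuclei by 4.52 ± 0.23, with a largest adjusted p by edgeR of 1.78e-05. Control CA3 counts helped choose AC171111.1, so its level tests are not free of that choice. With doublets kept the value against inhibitory nuclei was 3.26. With free RNA subtracted no fold is given against CA1 or inhibitory nuclei, since the free RNA expected there was above the level of the gene in 1 or both Control libraries. Leaving out a Control library moved the value against CA2 to 4.49 (without replicate 1) and 1.78 (without replicate 2), with no test. Against mossy cells the difference was 0.23 ± 0.23 (adjusted p = 0.588), and against dentate granule it was -0.34 ± 0.08 (adjusted p = 1.05e-04), which fell short of the threshold at the next clustering resolution (-0.16, adjusted p = 0.0859, edgeR) and with doublets kept (-0.14, adjusted p = 0.196).

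Control levels of Gm20110 in the excitatory and inhibitory classes of the plot of levels by class ran between 1.66 and 6.11 CPM. CA3 (4.82 and 3.73 CPM) was higher than CA1 (3.31 and 1.66 CPM) by 0.83 ± 0.21 (log2, SE, adjusted p = 0.0129 by edgeR). The Control CA3 counts are part of the contrast that chose Gm20110, so this call is not free of that choice. Differences of CA3 from CA2 (0.62 ± 0.40), mossy (0.09 ± 0.55), dentate granule (0.21 ± 0.19) and inhibitory nuclei (0.46 ± 0.25) did not pass, with adjusted p-values of 0.305, 0.949, 0.332 and 0.137 by edgeR.

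Some genes shared the class pattern of a member over the means of 13 Control classes, measured as Pearson's r of log2(CPM + 1) among 13895 genes of at least 5 CPM in a class. These classes share libraries and differ in depth, so r is a description. For Ttn the nearest were Gm25684 (r = 0.93), the copine Cpne9 (0.91), Csf2rb2 (0.90), the fibrocystin gene Pkhd1 (0.90) and Gm32647 (0.89), all highest in mossy cells. For Lin28b they included AL805899.1 (0.90), Cgref1 (0.88), Gm45388 (0.88) and Zfp618 (0.86).

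For AC171111.1 the nearest was its genomic neighbour Smoc2, which encodes a secreted calcium-binding matrix protein, at r = 0.94. Napepld (0.88), Fermt1 (0.87), Il16 (0.86) and the sarcomeric alpha-actinin Actn2 (0.86) followed. For Gm20110 they were the tubulin Tubb4b (0.95), Lamtor1 (0.95), Bfar (0.95), Gins3 (0.95) and the proteasome subunit Psmc6 (0.95). Each of these was highest in astrocytes, Cajal-Retzius nuclei or oligodendrocyte precursors, where Gm20110 had few Control counts. Its 2 Control libraries there were at 8.94 and 16.0 CPM (16 counts), 0 and 22.0 CPM (7 counts) and 2.49 and 21.3 CPM (26 counts), from low to high.

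Other classes hold other nuclei than those that chose the genes, but they come from the same 4 libraries, so a deviation of a whole library is carried into them. Gm20110 was not tested in CA2, mossy cells or the Calcrl, Htr2c and Col6a1 cluster, and AC171111.1 not in CA2 or subicular or cortical excitatory nuclei, because they did not pass the filter there. Of the members tested in each, none passed an adjusted p of 0.05 by edgeR in CA1, CA2, mossy, dentate granule, inhibitory, subicular or cortical excitatory nuclei, the Calcrl, Htr2c and Col6a1 cluster or all nuclei outside CA3. Of all genes in those fits, 0.0237%, 0.0368%, 0.714%, 0.387%, 0.0272%, 0.0573%, 0.0269% and 0.0744% passed, in the same order. Unadjusted p-values under 0.05 held for 8.49%, 6.89%, 9.1%, 9.98%, 6.54%, 7.5%, 6.57% and 10.4% of genes, again in that order. Among the members they held for Lin28b in CA1, CA2, dentate granule and all nuclei outside CA3, for Ttn in mossy cells, for AC171111.1 in mossy cells and outside CA3, and for Gm20110 in CA1, dentate granule, inhibitory, subicular or cortical excitatory nuclei and outside CA3. With DESeq2, Lin28b passed in CA1, where DESeq2 called 0.64% of genes (108 of 16885), and outside CA3, where it called 2.14% (461 of 21518).

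Lin28b had higher values in Kat6a-cKO in several excitatory classes. In CA2 it was at 13.6 and 8.86 CPM in Control against 26.6 and 31.2 CPM in Kat6a-cKO, with a difference of 1.41 ± 0.23 (log2, SE; adjusted p = 0.0742, edgeR). The groups were apart, as they were in the higher direction for 18.4% of genes in CA2. In the same CA2 sums the CA2 markers stood at 388 and 377 CPM in Control against 348 and 319 CPM in Kat6a-cKO, with 0 of them at 0, and the astrocyte markers at 102 and 100.5 CPM against 125 and 132 CPM, with 0 to 2 of them at 0. Lin28b stood at 2.98 to 4.93 CPM in Control astrocytes and at 1.65 to 3.51 CPM in Kat6a-cKO astrocytes, without TMM scaling. In CA2 the mossy markers summed to 118.3 and 124.9 CPM in Control against 136.6 and 123.6 CPM in Kat6a-cKO. Inhibitory markers summed to 28.2 and 32.3 CPM against 36.9 and 27.7 CPM. Calcrl, Htr2c and Col6a1 summed to 123.5 CPM (Control replicate 1) up to 199.7 CPM (Kat6a-cKO replicate 2). For these last lists the groups overlapped. The part of any of these markers in the Lin28b difference was not tested. In CA1 it was at 14.6 and 8.58 CPM against 21.0 and 20.2 CPM (0.83 ± 0.22, adjusted p = 0.342, edgeR), where groups were apart upward for 18% of genes.

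In dentate granule nuclei Lin28b was at 3.37 and 3.84 CPM in Control against 5.45 and 6.73 CPM in Kat6a-cKO (0.76 ± 0.17, adjusted p = 0.108, edgeR; groups apart upward for 19.6% of genes), and with free RNA subtracted the value was 1.43 (adjusted p = 0.376). Subicular or cortical excitatory nuclei had 36.2 and 40.9 CPM against 42.9 and 58.2 CPM (0.40 ± 0.18, adjusted p = 0.664; 17.8% of genes). In inhibitory nuclei the groups overlapped at 87.6 and 84.0 CPM against 85.6 and 92.7 CPM (0.05 ± 0.08, adjusted p = 0.954, edgeR).

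Mossy cells had 89.6 and 86.1 CPM of Lin28b in Control against 97.4 and 106 CPM in Kat6a-cKO (0.21 ± 0.16, adjusted p = 0.776, edgeR; groups apart upward for 19.2% of genes). The Calcrl, Htr2c and Col6a1 cluster was at 59.7 and 89.5 CPM against 75.9 and 64.2 CPM (-0.12 ± 0.17, adjusted p = 0.953). Over all nuclei outside CA3 Lin28b was at 18.9 and 19.5 CPM against 26.3 and 28.0 CPM (0.50 ± 0.08, adjusted p = 0.0741, edgeR; 20% of genes were apart upward), a sum that also depends on the mix of classes. Whether the difference differs between classes was not tested.

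The adjusted p of Lin28b depended on the setting. In CA2 it passed in 6 of 12 alternatives of the edgeR and DESeq2 fits. Among them were doublets kept (adjusted p = 0.0397, edgeR), the replicate block and the fit with no filter on low counts. Those fits called 11, 84 and 103 genes in CA2, against 4 in the reported fit. With doublets kept the CA2 value was 1.43. It was 1.71, 1.10 or 1.52 when Control replicate 1, Control replicate 2 or Kat6a-cKO replicate 1 was left out. These omissions, which passed too, leave a lone library in 1 group, so no p-value is given for them. At clustering resolution 2 the CA2 value was only 0.65 (adjusted p = 0.714, edgeR). With Kat6a-cKO replicate 2 left out it was 1.29, which did not pass. In CA1 the adjusted p passed in 3 of 12 alternatives: DESeq2 (0.0161), no filter on low counts, and the omission of Kat6a-cKO replicate 1. DESeq2 called 108 genes in CA1 and the fit with no filter 524, against 4 in the reported fit. Over all nuclei outside CA3 it passed in 5 of 12. Among them were DESeq2, which called 461 genes there, and the replicate block, which called 835, against 16 in the reported fit. The rest were omissions of a library, over which the value ran from 0.45 to 0.54. As the DESeq2, replicate block, doublets kept and no filter fits named here called more genes of any kind, a pass in them does not single out Lin28b. In each of the 12 alternatives of CA2, of CA1 and of nuclei outside CA3 the value was higher in Kat6a-cKO.

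**Figure D3:**
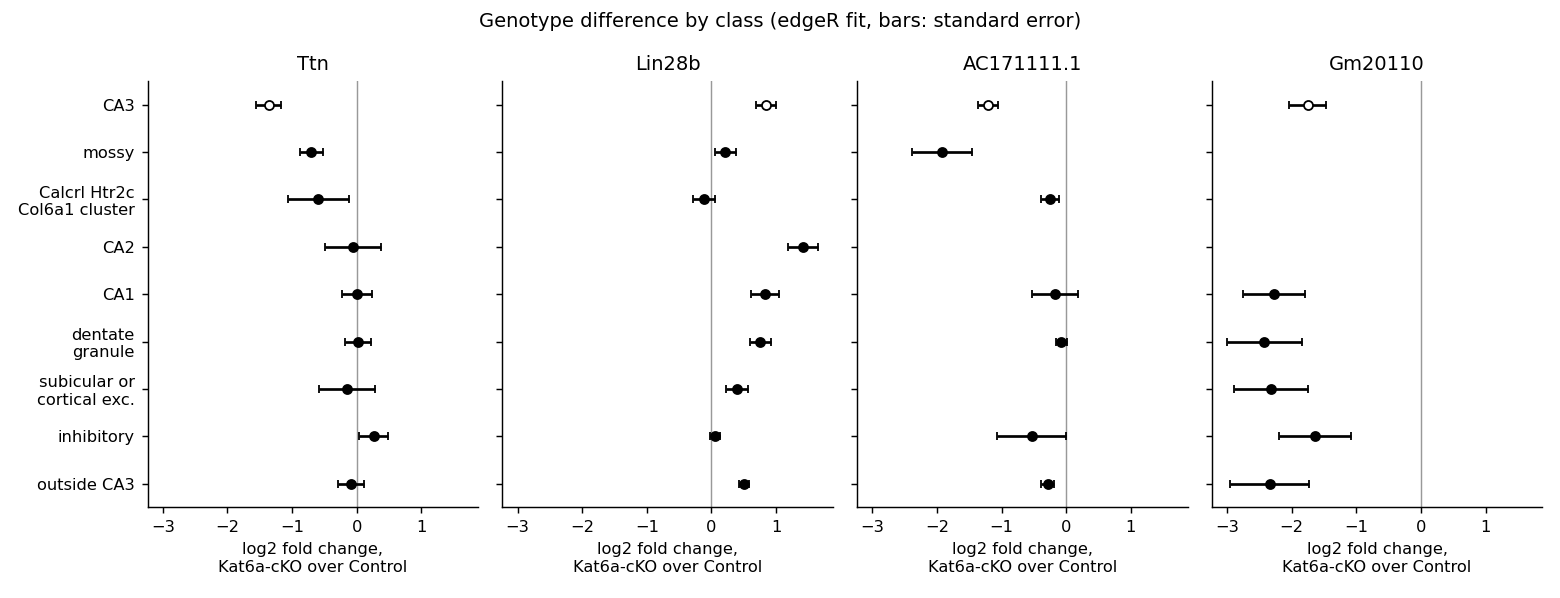
Difference between Kat6a-cKO and Control (log2 fold change, edgeR) of each gene by class of nuclei. Points are estimates and bars are SE from 2 libraries per group. Open points mark CA3, where the genes were picked and no test is given. A missing point did not pass the filter on low counts. Lin28b lies above 0 in CA2, CA1 and dentate granule and near 0 in inhibitory nuclei, and Ttn and AC171111.1 lie below 0 in mossy cells but near 0 in dentate granule.

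Ttn was lower in Kat6a-cKO mossy cells than in Control, at 83.2 and 95.3 CPM against 53.3 and 57.3 CPM. The groups were apart, as for 19.3% of genes in the lower direction, and the difference of -0.70 ± 0.18 (log2, SE) had an adjusted p of 0.132 by edgeR. Without Control replicate 1 it was -0.79, and over the 4 omissions of a library it ran from -0.79 to -0.59. Each omission leaves a lone library in 1 group, so no p-value is given for them. Apart from these omissions no alternative passed, DESeq2 included. In the same mossy sums, the 8 dentate granule markers stood at 635 and 598 CPM in Control and at 1197 and 1103 CPM in Kat6a-cKO, with at most 1 of them at 0 in a library, and the 9 mossy markers at 515 and 543 CPM against 467 and 431 CPM. The part of these marker levels in the Ttn difference was not tested. The mossy class held 30 and 51 nuclei in Control against 50 and 51 in Kat6a-cKO.

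Elsewhere the Ttn groups overlapped or stood at low levels. CA1 was at 2.27 and 3.23 CPM against 2.74 and 2.79 CPM (0.00 ± 0.23, adjusted p = 0.999, edgeR). CA2 was at 4.00 and 3.65 CPM against 4.07 and 3.26 CPM (-0.06 ± 0.43, adjusted p = 0.992), and dentate granule at 1.87 and 2.32 CPM against 2.17 and 2.07 CPM (0.02 ± 0.20, adjusted p = 0.991). The sign of these small values turned under some settings. In inhibitory nuclei the difference was 0.26 ± 0.22, in the Calcrl, Htr2c and Col6a1 cluster -0.60 ± 0.47 and in subicular or cortical excitatory nuclei -0.15 ± 0.43, with adjusted p-values of 0.906, 0.889 and 0.974 by edgeR.

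AC171111.1 had its 2 other classes of comparable level in mossy and dentate granule nuclei. In mossy cells, where it could pass the filter through Control alone, it was at 22.4 and 22.3 CPM in Control against 9.28 and 2.36 CPM in Kat6a-cKO, from 21, 34, 12 and 3 counts. The groups were apart, as for 19.3% of genes downward in mossy cells, and the difference was -1.92 ± 0.47 (log2, SE; adjusted p = 0.108, edgeR). Without Control replicate 1 or Kat6a-cKO replicate 1 it was -1.93 or -3.19. Without Control replicate 2 or Kat6a-cKO replicate 2 it was -1.92 or -1.26. Each omission leaves a lone library in 1 group, so no p-value is given, and these values carry the same filter. The higher dentate granule markers and lower mossy markers of the Kat6a-cKO mossy sums, given with Ttn, apply here too. Unlike Ttn, AC171111.1 was higher in dentate granule nuclei than in mossy cells in both groups. The part of these marker levels was not tested. In dentate granule nuclei AC171111.1 was at 32.6 and 36.0 CPM against 32.0 and 33.2 CPM, overlapping, with a difference of -0.07 ± 0.09 (adjusted p = 0.855, edgeR).

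In the Calcrl, Htr2c and Col6a1 cluster, where AC171111.1 was highest, the groups overlapped too, at 73.9 and 87.7 CPM in Control against 74.6 and 62.3 CPM in Kat6a-cKO (-0.25 ± 0.14, adjusted p = 0.820, edgeR). Over all nuclei outside CA3 it was at 15.04 and 17.1 CPM against 13.3 and 12.96 CPM (-0.29 ± 0.09, adjusted p = 0.341, edgeR), with the groups apart as for 21.2% of genes downward. Levels in CA1 and inhibitory nuclei were under 2 CPM in every library, with differences of -0.17 ± 0.35 and -0.53 ± 0.53. In CA2 and in subicular or cortical excitatory nuclei the gene did not pass the filter. Whether the difference in CA3 departs from that in dentate granule was not tested, because the first chose the gene.

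Gm20110 could pass the filter on low counts through Control alone, where its counts were higher, so the direction in the classes that passed is partly fixed by that filter. It was at 5.76 and 2.40 CPM in Control against 0.205 and 1.35 CPM in Kat6a-cKO dentate granule nuclei (-2.42 ± 0.58 log2, SE; adjusted p = 0.138, edgeR), and at 3.36 and 1.62 CPM against 0.292 and 0.697 CPM in CA1 (-2.27 ± 0.48, adjusted p = 0.267). Subicular or cortical excitatory nuclei had 4.93 and 2.60 CPM against 0.862 and 0.668 CPM (-2.31 ± 0.57, adjusted p = 0.307). Inhibitory nuclei had 5.05 and 2.11 CPM against 0.354 and 1.998 CPM (-1.64 ± 0.56, adjusted p = 0.557). The groups were apart in all 4 of these classes, as they were downward for 20.5%, 20.4%, 18.9% and 18.5% of genes in the same order.

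Single libraries weighed on Gm20110. Control replicate 1 had the highest value in dentate granule, CA1, subicular or cortical excitatory and inhibitory nuclei, and Kat6a-cKO replicate 1 the lowest in dentate granule, CA1 and inhibitory nuclei. The same was seen in free RNA, at 5.71 and 2.81 CPM in Control against 1.81 and 2.57 CPM in Kat6a-cKO. Values with 1 library left out carry the same selection by the filter, so those with an adjusted p under 0.05 are given as values and support nothing. In dentate granule the difference was -2.91 without Control replicate 2, and it was -4.30 without Kat6a-cKO replicate 2, with adjusted p-values of 5.01e-04 and 5.04e-05 by edgeR. In CA1 the adjusted p was under 0.05 without Kat6a-cKO replicate 1 (-1.82, adjusted p = 0.0429) or replicate 2 (-3.06, adjusted p = 0.0156). Over all nuclei outside CA3 the groups were apart too, as for 21.2% of genes downward, with a difference of -2.34 ± 0.61 (adjusted p = 0.226). There the adjusted p was under 0.05 without Control replicate 2, Kat6a-cKO replicate 1 or Kat6a-cKO replicate 2, at -2.83, -1.63 and -3.73.

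The other omissions gave larger adjusted p-values. In dentate granule the value was -1.66 when Control replicate 1 was left out and -1.61 when Kat6a-cKO replicate 1 was (adjusted p-values of 0.149 and 0.275, edgeR), and in CA1 leaving out Control replicate 1 gave -1.66 and leaving out Control replicate 2 gave -2.71 (0.464 and 0.582). Outside CA3 it was -1.58 without Control replicate 1 (adjusted p = 0.0923).

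For Gm20110 in inhibitory nuclei the adjusted p was under 0.05 without Kat6a-cKO replicate 2 (-3.29, adjusted p = 2.00e-04), and in subicular or cortical excitatory nuclei without Control replicate 2 (-2.64, adjusted p = 0.0229, edgeR). In inhibitory nuclei leaving out Control replicate 1, Control replicate 2 or Kat6a-cKO replicate 1 gave -0.88, -2.14 or -0.83, with adjusted p-values of 0.978, 0.0935 and 0.771. In subicular or cortical excitatory nuclei it was -2.49 and -2.13 without Kat6a-cKO replicates 1 and 2, with adjusted p-values of 0.561 and 0.998, and without Control replicate 1 it did not pass the filter. The part that 1 library plays in the result was not tested further.

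Genes around each member were read from the CA3 fit over all genes. Within 500 kb, 9 tested genes lay around Ttn, 4 around Lin28b, 5 around AC171111.1 and 8 around Gm20110, and 0 of each passed the edgeR test, with 1, 0, 2 and 3 at an unadjusted p under 0.05. Of all genes tested in CA3, 0.0205% and 8.09% did so. DESeq2 passed 0 of these 26 genes as well, and gave an adjusted p for some of them only. Next to Ttn, Plekha3 was at 0.13 ± 0.10 and Ccdc141 at 0.33 ± 0.44 (log2 fold change, SE), with adjusted p-values of 0.810 and 0.912. Next to Lin28b, the membrane protein gene Bves was at -0.20 ± 0.12 and the ubiquitin ligase gene Hace1 at 0.01 ± 0.08, with adjusted p-values of 0.734 and 0.988. 

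Smoc2, 1.75 kb beyond the end of AC171111.1 and on the same strand, was at -0.15 ± 0.09 in CA3 (adjusted p = 0.743, edgeR). The nearest tested gene on the other side, Dact2, a regulator of Wnt and TGF-beta signalling 45.5 kb away, was at -0.55 ± 0.19 (adjusted p = 0.471). Smoc2 was at 106 and 128 CPM in Control CA3 against 107 and 103 CPM in Kat6a-cKO, and its groups overlapped.

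The nearest tested genes to Gm20110 were Gm35101, a non-coding gene 11.4 kb downstream, at -2.28 ± 0.57 (adjusted p = 0.261, edgeR), and Gm34983, 121 kb upstream, at -0.53 ± 0.38 (adjusted p = 0.796). Gm35101 was at 1.44 and 0.892 CPM in Control CA3 against 0.145 and 0.307 CPM in Kat6a-cKO. Gm47578 and B530045E10Rik were singled out after their values were seen. Gm47578, 61.0 kb downstream, was at 4.47 and 1.10 CPM against 0.506 and 0.675 CPM (-2.19 ± 0.63, adjusted p = 0.353). B530045E10Rik, 186 kb upstream, was at 7.43 and 4.94 CPM against 3.11 and 3.13 CPM (-0.98 ± 0.25, adjusted p = 0.264). In Gm35101, Gm47578, B530045E10Rik and Gm34983 (1.74 and 1.17 CPM against 1.01 and 0.982 CPM) both Kat6a-cKO libraries were below both Control libraries. The same held for 19.7% of all genes in CA3. Gm35101 and Gm47578, like Gm20110, could pass the filter on low counts through Control alone. Their direction, and their unadjusted p-values under 0.05 by edgeR, are thus partly fixed by that filter. The non-coding Gm34574 in the same window was at 0.21 ± 0.44, and the protein-coding genes Kitl, Dusp6 and Poc1b at 0.54 ± 0.29, 0.17 ± 0.23 and 0.16 ± 0.14.

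**Figure D4:**
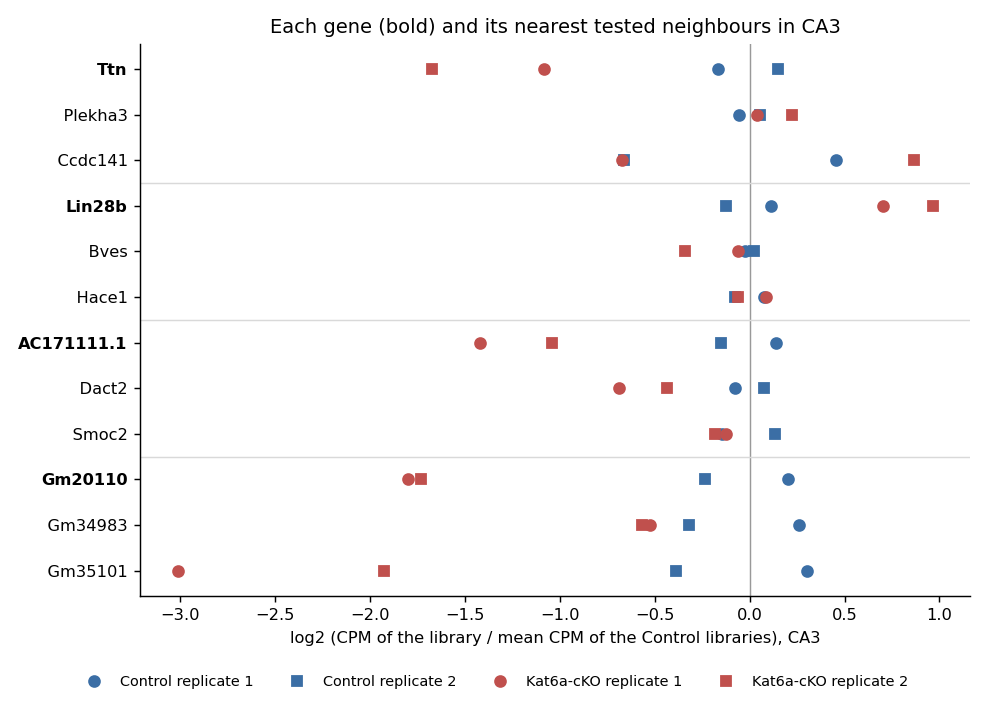
CA3 level of each gene (bold) and of its nearest tested gene on each side, as log2 of the CPM of a library over the mean of the Control libraries. Points are libraries (circles replicate 1, squares replicate 2). Both Kat6a-cKO points of Gm35101 and of Gm20110 lie below both Control points, Dact2 and Gm34983 lie lower by less, Ccdc141 is spread widely, and Smoc2, Plekha3, Bves and Hace1 lie closest to 0.

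Pathway genes listed with the members were read from the same CA3 fit, where 0.0205% of all genes passed, so a count of 0 in a short list shows nothing about that list. Of 40 gene symbols listed for the let-7 and LIN28 axis, some of them older names of genes also listed, 37 were found in the data. Of these, 31 were tested and 0 passed in either direction by edgeR. An unadjusted p under 0.05 held for 3 of them, against 8.09% of all genes tested. The median fold change of the 31 was -0.01, as it was over all genes. The 3 of smallest p were Acvr1c, a TGF-beta family receptor (34.1 and 32.0 CPM in Control, 42.0 and 43.6 CPM in Kat6a-cKO, 0.37 ± 0.09, adjusted p = 0.261), Mir99ahg, which hosts a let-7 gene (-0.25 ± 0.07, adjusted p = 0.332), and Trim71, a let-7 target (-0.35 ± 0.15, adjusted p = 0.588).

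Of 52 genes of titin partners and the sarcomere, 29 were tested and 0 passed in either direction by edgeR, with 3 at an unadjusted p under 0.05, against 8.09% of all genes. In this list 23 genes were above and 6 below 0, with a median of 0.14 against -0.01 over all genes. The 3 of smallest p were Fhl2, a LIM protein that binds titin (50.5 and 52.9 CPM in Control, 66.3 and 69.0 CPM in Kat6a-cKO, 0.39 ± 0.08, adjusted p = 0.179), Myoz3, a Z-disc calsarcin (2.58 and 1.65 CPM against 0.723 and 0.429 CPM, -1.87 ± 0.43, adjusted p = 0.224), and the chaperone Hsp90aa1 (-0.72 ± 0.27, adjusted p = 0.523). Myoz3, which was low in Kat6a-cKO, could pass the filter on low counts through Control alone, so its direction is partly fixed by that filter. DESeq2 passed 38 genes in CA3 against 3 with edgeR.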

How the data were processed

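For every barcode, empty droplets included, the matrices that the authors deposited hold unnormalized counts of molecules by gene. Per the submitters' processing notes, the build was mm10 and Seurat 4.0.1 was used; the aligner, annotation and counting strand are not given in the sources used here. Symbols were matched by ID (55154 of 55422). Members, marker lists and gene lists were chosen with earlier results of these data known. Doublets were called per library by Scrublet in scanpy 1.11.5 (expected rate 0.06) and left out. Log counts scaled to 10000 (2000 variable genes, 30 components, 15 neighbours, no integration) were clustered by Leiden (leidenalg 0.10.2, resolution 1), leaving out 139 genes, the members among them. For the CA3 clusters, all nuclei were clustered at resolution 3, and the CA3 nuclei were split by those labels, with small parts left out. A cluster took the class of highest mean z score over its markers if 50% or more of them, and no fewer than 3, stood 2-fold above the other nuclei. No name was given where the 10 genes leading a cluster held more markers of a different class than of its own, where a neuronal cluster also met this rule for a glial or vessel class or the reverse, or where a glial or vessel cluster had a median UMI count over 50% of that of its library. These rules were set after the data were seen. Counts were summed per library and class (at least 20 nuclei in each library) and tested with edgeR 4.0.16 in R 4.3.3 (TMM, filterByExpr, quasi-likelihood, Benjamini-Hochberg over all genes of a fit, threshold 0.05), after a check on simulated counts. An exact permutation test of 2 libraries against 2 cannot go below 0.333, so none was run. Genes named besides the members are the 5 most similar genes by class pattern (1 of them is not reported here), the nearest tested gene on each side within 500 kb, and the 3 of smallest p in each list; other genes near Gm20110 were named after their values were seen, as were the 3 genes called in CA3. Intervals cover counting error only. Alternatives were RLE scaling, no filter, resolution 2, doublets kept, at least 10000 UMIs, free RNA subtracted, a replicate block, DESeq2 1.42.0 and leaving out each library.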

Additional observations from a re-analysis of the deposited data

How the results depend on the processing

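Of the members' values, the CA3 genotype differences stayed within their replicate spread in 46 alternatives and moved beyond it in 6, all with the sign of the reported value. In the other classes 268 values kept direction and side of the threshold, 32 passed it and 18 turned in sign. The fits behind the 32 each called more genes of any kind than the reported fit of their class. In CA1 without a filter, for example, 524 of 28473 genes were called, against 4 of 16885. The 32 therefore do not single out the members. Among Control levels of CA3 over another class, 110 were the same, 21 moved, 5 turned in sign, 2 newly passed and 2 no longer passed. Unless stated, the cause was not tested. The Calcrl, Htr2c and Col6a1 cluster is called the Calcrl cluster here, and values are genotype differences (log2) unless a level is named. The genes called in the reported fits numbered 4 in CA1, 4 in CA2, 3 in CA3, 3 in the Calcrl cluster, 67 in dentate granule, 4 in inhibitory, 64 in mossy, 16 in nuclei outside CA3 and 7 in subicular or cortical excitatory nuclei.

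Without a filter on low counts, AC171111.1 at -1.91 in mossy, Gm20110 at -2.28 in CA1, -2.43 in dentate granule, -1.64 in inhibitory and -2.30 in subicular or cortical excitatory nuclei, Lin28b at 0.83 in CA1, 1.41 in CA2 and 0.74 in dentate granule newly passed the threshold; Ttn at -0.0033 in CA1 turned in sign. The called genes then numbered 524 in CA1, 103 in CA2, 307 in CA3, 531 in dentate granule, 138 in inhibitory, 174 in mossy, 2 in nuclei outside CA3 and 261 in subicular or cortical excitatory nuclei. At clustering resolution 2, the Control level of CA3 for AC171111.1 at -0.16 over dentate granule no longer passed it; Lin28b at 0.16 in the Calcrl cluster, Ttn at -0.15 in CA1, 0.46 in CA2 and -0.047 in dentate granule and the Control level of CA3 for Lin28b at 0.31 over CA1 and 0.25 over CA2 turned in sign; Lin28b at 0.59 in CA3 moved beyond the replicate spread with no test. The genes called then numbered 43 in CA1, 7 in CA2, 7 in CA3, 9 in the Calcrl cluster and 27 in nuclei outside CA3. With doublets kept, Lin28b at 1.43 in CA2 and the Control level of CA3 for Lin28b at -0.33 over CA1 newly passed the threshold; the Control level of CA3 for AC171111.1 at -0.14 over dentate granule no longer passed it; AC171111.1 at 0.045 in CA1 and Ttn at -0.16 in dentate granule turned in sign. The number of called genes was 1 in CA1, 11 in CA2, 5 in CA3 and 19 in the Calcrl cluster. With at least 10000 UMIs per nucleus, the genes called then numbered 1 in CA1, 5 in the Calcrl cluster, 0 in inhibitory and 19 in subicular or cortical excitatory nuclei. With free RNA subtracted, Ttn at -0.011 in CA1 turned in sign. The genes called then numbered 1 in CA1, 1 in CA3, 2 in dentate granule and 1 in inhibitory. With DESeq2, Lin28b at 0.84 in CA1 and 0.50 in nuclei outside CA3 newly passed the threshold. The count of called genes became 108 in CA1, 13 in CA2, 38 in CA3, 11 in the Calcrl cluster, 226 in dentate granule, 13 in inhibitory, 461 in nuclei outside CA3 and 24 in subicular or cortical excitatory nuclei. With RLE size factors, the Control level of CA3 for Lin28b at -0.30 over CA1 newly passed the threshold. The genes called then numbered 8 in CA3. With the Calcrl cluster added to CA3, an alternative chosen after seeing the data, AC171111.1 at -0.73 in CA3 and Lin28b at 0.32 in CA3 moved beyond the replicate spread with no test. Some further values kept their call but moved by over 1.5 times in fold. With free RNA subtracted these were Lin28b in dentate granule (1.43) and its Control level of CA3 over dentate granule (2.38), while no fold is given for AC171111.1 over CA1 or inhibitory, where the expected free RNA was above its level in 1 or both Control libraries. At clustering resolution 2 they were Lin28b in CA2 (0.65) and its levels over dentate granule (2.16), inhibitory (-2.43) and mossy (-2.54), and with doublets kept AC171111.1 over inhibitory (3.26).

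The replicate numbers are shared by both genotypes, but the labels do not say that a number marks a litter, day or batch. Deviations of same-numbered libraries correlated at 0.135 over genes in CA3 and 0.302 outside it, over 2 pairs only, so the number was not taken as a pairing. With the replicate block, Lin28b at 1.42 in CA2 and 0.50 in nuclei outside CA3 newly passed the threshold. The called genes numbered 35 in CA1, 84 in CA2, 107 in CA3, 71 in the Calcrl cluster, 165 in dentate granule, 27 in inhibitory, 835 in nuclei outside CA3 and 52 in subicular or cortical excitatory nuclei. It brought no other member past the threshold outside CA3.

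Leaving out 1 library at a time leaves an arm with a lone library, which is then assumed to vary like the others. The genes called ranged from 1 to 211 in CA1, 10 to 137 in CA2, 2 to 317 in CA3, 2 to 65 in the Calcrl cluster, 31 to 464 in dentate granule, 29 to 136 in inhibitory, 92 to 155 in mossy, 198 to 638 in nuclei outside CA3 and 2 to 581 in subicular or cortical excitatory nuclei. The genotype difference of AC171111.1 ranged from -3.19 to -1.26 in mossy. Gm20110 ranged from -3.06 to -1.66 in CA1, -1.96 to -1.52 in CA3, -4.30 to -1.61 in dentate granule, -3.29 to -0.83 in inhibitory, -3.73 to -1.58 in nuclei outside CA3 and -2.64 to -2.13 in subicular or cortical excitatory nuclei. Lin28b ranged from 0.50 to 1.26 in CA1, 1.10 to 1.71 in CA2, -0.35 to 0.23 in the Calcrl cluster, -0.0042 to 0.11 in inhibitory and 0.45 to 0.54 in nuclei outside CA3. Ttn ranged from -0.23 to 0.28 in CA1, -0.22 to 0.10 in CA2, -1.67 to -1.08 in CA3, -0.14 to 0.18 in dentate granule, -0.79 to -0.59 in mossy, -0.37 to 0.25 in nuclei outside CA3 and -0.46 to 0.12 in subicular or cortical excitatory nuclei. The level of CA3 over another class is then the ratio of 1 library, with no test. For that level, AC171111.1 ranged from 5.28 to 5.72 over CA1, 1.78 to 4.49 over CA2, -0.65 to -0.24 over dentate granule and 3.73 to 5.34 over inhibitory. Gm20110 ranged from 0.54 to 1.17 over CA1, 0.52 to 1.02 over CA2, -0.24 to 0.61 over dentate granule, -0.057 to 0.80 over inhibitory and -0.12 to 0.18 over mossy. Lin28b ranged from -0.58 to -0.038 over CA1, -0.49 to -0.044 over CA2, 1.13 to 1.53 over dentate granule and -3.31 to -3.17 over inhibitory. Ttn ranged from 2.01 to 2.53 over CA2 and 1.36 to 1.52 over inhibitory. Low counts kept Gm20110 out of the genotype test in CA2, mossy cells, the Calcrl cluster and glia, and AC171111.1 out of it in CA2 and subicular or cortical excitatory nuclei.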

Other observations

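Detection of the members in the same CA3 nucleus was counted after thinning. There, 0 of 1011 Control CA3 nuclei held both Ttn and AC171111.1, where 70 held Ttn and 83 held AC171111.1, and the product of the shares would give 5.75. Lin28b and AC171111.1 were found together in 6 Control nuclei, against 3.20 from the product. In Kat6a-cKO, 1 of 1226 nuclei held both Ttn and AC171111.1, against 1.84. Few nuclei hold any of these pairs, and Ttn and AC171111.1 were highest in different CA3 clusters.

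Gm20110 was also counted in glia, where it did not pass the filter. In oligodendrocytes it was at 15.3 and 2.79 CPM in Control against 0 and 7.43 CPM in Kat6a-cKO, from 18, 2, 0 and 3 counts. In astrocytes it was at 16.0 and 8.94 CPM in Control, from 13 and 3 counts, and at 0 counts in both Kat6a-cKO libraries. AC171111.1 had 0 counts in Control astrocytes.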
